A study of Mus musculus with 12 samples.

Results

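The genes described are 36 genes of cholesterol and fatty acid synthesis and of its control, named as a list of members. Of these, 35 had at least 1 probe set that the array's annotation assigned to that gene alone, and the probe set with the highest mean over the 12 arrays stood for the gene. Acsl1 was not analysed here. The members had 84 probe sets, and 34 members passed the filter on low values and were tested, of 12305 genes tested in all. Elovl2, an elongase of polyunsaturated fatty acids, did not pass. By role, the members comprised 12 sterol enzymes, 5 enzymes of fatty acid synthesis, 8 elongases and desaturases, 4 genes of fatty acid activation, 5 regulators and 2 genes of lipid efflux and binding. The roles of synthesis, elongation and desaturation, and activation together form the fatty acid branch, with 17 genes listed and 15 tested.

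The tissues were pituitary tumors that arose spontaneously in mice with a knockout (KO) of the pro-opiomelanocortin (POMC) gene, and normal mouse pituitary. The study used the tumor profiles to ask how far these tumors resemble human nonfunctioning pituitary adenomas, and RNA was hybridized to Affymetrix Mouse Genome 430 2.0 arrays, which read each transcript with sets of short probes. There were 8 arrays of heterozygous POMC KO tissue, with 1 Pomc allele disrupted, 2 arrays of homozygous POMC KO tissue, with both disrupted, and 2 arrays of normal pituitary. No treatment of the arrayed mice is named in the labels or in the description of the arrays, though other mice of the study were treated. The age, sex and strain of the arrayed mice are not given in the sources used here, and the normal pituitary is described in the methods as pooled, so that the spread between normal arrays may be technical. Pomc, the targeted gene, had a log2 signal of 7.18 in the homozygous sample, against at least 15.15 in each heterozygous sample and 15.08 and 15.11 in the normal arrays. The pituitary hormone genes Gh and Prl were at 13.32 or more in every sample.

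The tumor arrays fell into pairs by number, with correlations of 0.997 to 0.998 within a pair, against 0.993 between the normal arrays. Each pair was averaged and counted as 1 sample, which gave 4 heterozygous samples (named 1-2, 3-4, 5-6 and 7-8 after their arrays), 1 homozygous sample and 2 normal samples. The members differed by a median of 0.042 to 0.068 on the log2 scale between the arrays of a pair and by 0.138 between the normal arrays. The pairing is inferred from the likeness of the arrays, while the design text lists a mouse per array. On this pairing the homozygous tissue gives 1 sample, whose tests assume that it varies as the other groups do. Xist, which is transcribed from the inactive X chromosome, was at 10.93, 11.25 and 11.20 in heterozygous samples 3-4 and 7-8 and the homozygous sample, against 4.57 to 5.07 in heterozygous samples 1-2 and 5-6 and the normal arrays. All values below are log2 signals of 1 probe set, and the level of one gene is not set against that of another. Since whole tissue was measured, fewer cells of a type and less RNA per cell cannot be told apart.

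Cholesterol and fatty acids are both built from acetyl-CoA. In the sterol branch, 3-hydroxy-3-methylglutaryl-CoA passes through mevalonate and the isoprenoids to squalene, lanosterol and cholesterol. In the fatty acid branch, malonyl-CoA is used to build palmitate, which elongases lengthen and desaturases give double bonds. Both branches are switched on by the sterol regulatory element-binding proteins (SREBPs), which are held in the endoplasmic reticulum by Scap and the Insig proteins while sterols are plentiful. Srebf2 acts mainly on sterol genes, and the shorter product of Srebf1 mainly on fatty acid genes.

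Promoter sequence was available from RefSeq (GRCm38.p6) for 28 members, as windows of 250 bases before to 50 bases after a gene's start. Both strands were searched for the sterol regulatory element core TCACNCCAC, for the CCAAT box bound by NF-Y, which works with SREBPs at many sterol promoters, and for the E box CACGTG. The CCAAT box was found in 9 of 11 windows of sterol genes (81.8%) and 7 of 15 windows of fatty acid genes (46.7%), and in 37.4% of all 32851 windows. Fdps, Fdft1, Sqle, Scd1, Scd2, Fads1 and Fabp5 had no window and were not searched. Counted by gene with a window, the CCAAT box was in 9 of 9 sterol genes and 7 of 13 fatty acid genes, and in 11096 of all 27025 genes. Of the windows of regulators, 5 of 10 held it. The core was found in the Hmgcs1 window and in no other member's, and in 1.24% of all windows. The E box was found in 2 of 11 windows of sterol genes and 1 of 15 windows of fatty acid genes, and in 7.15% of all windows. It was also in 3 of 10 windows of regulators (Insig1 and Scap) and in the 1 window of Abca1. These 3 promoters, picked after the expression values were seen, are shown because they differ in these letters and because the genes differ in the tumors. Capitals mark the core and the CCAAT box, which reads ATTGG where it lies on the opposite strand.
Hmgcs1 (chr13:119690101-119690400, plus strand): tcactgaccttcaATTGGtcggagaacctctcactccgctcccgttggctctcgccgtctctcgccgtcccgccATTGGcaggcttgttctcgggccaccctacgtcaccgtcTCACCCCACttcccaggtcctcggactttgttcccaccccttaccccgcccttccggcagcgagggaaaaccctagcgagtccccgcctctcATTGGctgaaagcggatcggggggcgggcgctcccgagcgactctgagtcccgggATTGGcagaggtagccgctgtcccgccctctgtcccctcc
Cyp51 (chr5:4104648-4104947, minus strand): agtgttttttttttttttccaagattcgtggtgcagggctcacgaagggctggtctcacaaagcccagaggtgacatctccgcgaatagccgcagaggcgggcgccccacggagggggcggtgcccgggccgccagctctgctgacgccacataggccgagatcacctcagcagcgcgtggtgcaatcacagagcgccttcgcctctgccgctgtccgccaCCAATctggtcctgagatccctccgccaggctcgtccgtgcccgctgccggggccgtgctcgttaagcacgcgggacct
Elovl6 (chr3:129532136-129532435, plus strand): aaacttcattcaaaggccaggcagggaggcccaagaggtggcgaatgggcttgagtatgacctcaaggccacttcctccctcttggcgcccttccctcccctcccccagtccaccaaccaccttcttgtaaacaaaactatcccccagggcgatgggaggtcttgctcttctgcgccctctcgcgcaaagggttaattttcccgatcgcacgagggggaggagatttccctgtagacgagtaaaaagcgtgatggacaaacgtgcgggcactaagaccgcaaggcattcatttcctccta
Hmgcs1 was within 0.13 of normal pituitary in heterozygous tumors, Cyp51 was higher and Elovl6 was lower, as described below. The Hmgcs1 window holds the core and 4 CCAAT boxes, the Cyp51 window holds 1 CCAAT box, and the Elovl6 window holds none of the 3 motifs. A match describes the letters only.

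At an adjusted p under 0.05 alone (limma), 6 of 15 genes of the fatty acid branch fell in heterozygous tumors, Slc27a2 among them, and 1 rose. By the same rule, 3 of 12 sterol enzymes rose by less than 2-fold and none fell, and the lipid-binding protein Fabp5 rose. Of all genes tested, 11.5% fell and 12.7% rose by it. At an adjusted p under 0.05 (limma, Benjamini-Hochberg over all tested probe sets) and a fold change over 2, 1 member was higher, Fabp5, and 3 were lower, Scd1, Elovl6 and Slc27a2. Slc27a2 passed the filter on low values only through the homozygous and normal arrays, where it is high, so its test is not independent of the filter. When the filter had to be met in at least 7 arrays, Slc27a2 was not tested and 3 members were called. At the adjusted p alone, 5 fatty acid genes then fell. By the rule with both thresholds, 5.57% of all genes tested were called higher and 4.5% lower. With the adjusted p alone, a rule added after the data were seen, 6 of 34 members were higher and 7 were lower, against 12.7% and 11.5% of all genes. Of these 13 calls, 4 remained without normal array 1 (Scd1, Elovl6, Slc27a2 and Fabp5), and those and 3 more without normal array 2 (Fdps, Fdft1 and Cyp51). Of the heterozygous samples, leaving out 1-2 removed the call of Fdps, 3-4 that of Scap and 5-6 both. Leaving out 1-2 also added a call of the sterol enzyme Dhcr7 as lower. In the homozygous sample, 2 members were lower by both rules, Scd1 and Elovl6, and none was higher. Of all genes, 1.43% were called higher and 1.3% lower in that comparison, or 1.59% and 1.58% with the adjusted p alone. At an unadjusted p under 0.05 in limma, 3 members were higher and 10 lower in the homozygous sample, against 9.03% and 10.2% of all genes.

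**Figure D1:**
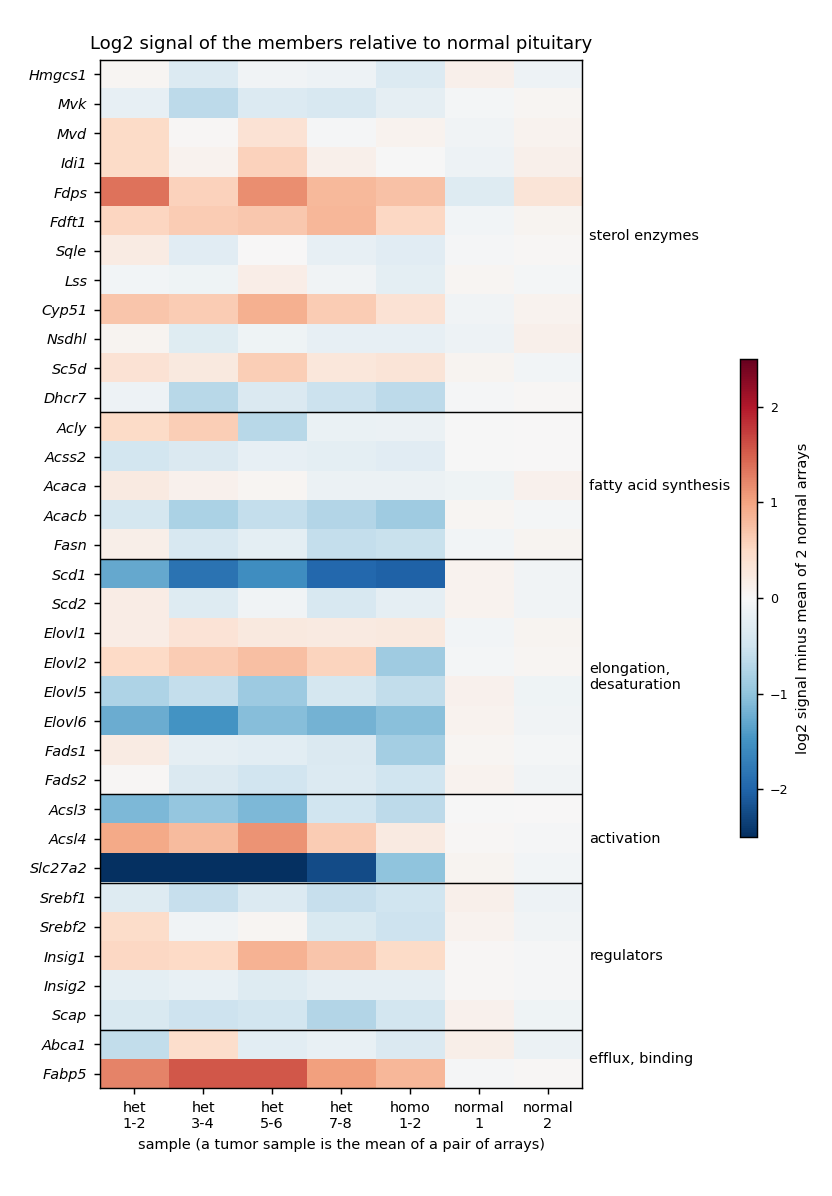
Log2 signal of the 35 measured members (rows, grouped by role) in the 4 heterozygous samples, the homozygous sample and the 2 normal arrays (columns), each minus the mean of the normal arrays. Slc27a2, Scd1 and Elovl6 are blue in every tumor sample and Fabp5 is red in every one, while most sterol enzymes are pale. Elovl2 is shown but lay below the filter.

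Of the 12 sterol enzymes, 3 were higher in heterozygous tumors at an adjusted p under 0.05 and none was lower, against 12.7% and 11.5% of all genes. No sterol enzyme passed the 2-fold threshold. At an unadjusted p under 0.05, 4 were higher and 2 lower, against 20% and 19.1% of all genes. The 3 are Fdps, which makes farnesyl diphosphate, Fdft1, which joins 2 farnesyl units to squalene, and Cyp51, which demethylates lanosterol. Fdps was at 10.20, 9.42, 10.01 and 9.65 in the heterozygous samples and 9.58 in the homozygous sample, against 8.51 and 9.17 in the normal arrays. Every tumor sample lay above both normal arrays, but the normal arrays themselves were 0.66 apart, the widest gap of any member. The difference was 0.98 ± 0.26 (SE, adjusted p = 0.0362, limma) in heterozygous tumors and 0.74 ± 0.37 (adjusted p = 0.35, limma) in the homozygous sample.

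Fdft1 was at 10.67, 10.77, 10.81 and 10.96 in the heterozygous samples and 10.64 in the homozygous sample, against 10.06 and 10.20 in the normal arrays. The groups did not overlap, and the difference in heterozygous tumors was 0.67 ± 0.12 (SE, adjusted p = 0.00881, limma). Other probe sets of Fdft1 differed less, by 0.16 and 0.09, and neither passed the test. Cyp51 was at 8.28, 8.23, 8.48 and 8.23 in the heterozygous samples and 7.95 in the homozygous sample, against 7.51 and 7.68 in the normal arrays. Its difference was 0.71 ± 0.12 (SE, adjusted p = 0.00746, limma), and a second Cyp51 probe set gave 0.91 (adjusted p = 0.00639). In the homozygous sample, Fdft1 differed by 0.51 and Cyp51 by 0.36, and neither passed the test (adjusted p = 0.181 and 0.341, limma).

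The other 9 sterol enzymes had differences of -0.43 to 0.38 in heterozygous tumors and did not pass the test. Hmgcs1, which makes 3-hydroxy-3-methylglutaryl-CoA, was at 10.14, 9.76, 10.01 and 9.97 in the heterozygous samples and 9.76 in the homozygous sample, against 10.23 and 9.96 in the normal arrays. The heterozygous and normal values overlap, and the 95% interval of the difference was -0.47 to 0.22. Sqle, the squalene epoxidase that controls entry into the sterol-specific steps, was at 9.76, 9.27, 9.56 and 9.36 in the heterozygous samples and 9.28 in the homozygous sample, against 9.53 and 9.59 in the normal arrays. Its difference of -0.07 in heterozygous tumors had a 95% interval of -0.44 to 0.29. At the ends of the range were Dhcr7, the last reductase of the pathway, at -0.43 (adjusted p = 0.105, limma) and Sc5d, the lathosterol desaturase, at 0.38 (adjusted p = 0.087, limma). Idi1, the isopentenyl diphosphate isomerase, differed by 0.32 on its main probe set and by 0.70 on a second one (adjusted p = 0.241 and 0.0394, limma). Lss, the lanosterol synthase, differed by -0.02 and 0.41 on 2 probe sets, with neither past the test.

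Of 5 enzymes of fatty acid synthesis, 1 was lower in heterozygous tumors at an adjusted p under 0.05. This was Acacb, the acetyl-CoA carboxylase of the mitochondrial surface, whose malonyl-CoA restrains fatty acid oxidation. Acacb was at 7.22, 6.87, 7.06 and 6.93 in the heterozygous samples and 6.78 in the homozygous sample, against 7.70 and 7.61 in the normal arrays. It fell by 0.64 in heterozygous tumors (SE 0.13, adjusted p = 0.0142, limma). The difference in the homozygous sample was -0.88 (adjusted p = 0.0573, limma). Acaca, the cytosolic carboxylase that feeds synthesis, differed by 0.06 in heterozygous tumors (95% interval -0.27 to 0.39).

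Fasn, the fatty acid synthase, was at 9.67, 9.11, 9.28 and 8.93 in the heterozygous samples and 8.97 in the homozygous sample, against 9.45 and 9.59 in the normal arrays. Heterozygous sample 1-2 lay above both normal arrays and the other tumor samples below them. Heterozygous tumors differed by -0.27 and the homozygous sample by -0.55 (adjusted p = 0.376 and 0.37, limma). Acss2, which makes acetyl-CoA from acetate, differed by -0.31 in heterozygous tumors (adjusted p = 0.0996, limma). Acly, which makes cytosolic acetyl-CoA from citrate, varied more between the heterozygous samples than any other member. It was at 11.29, 11.43, 10.12 and 10.65 in the heterozygous samples and 10.68 in the homozygous sample, against 10.81 and 10.82 in the normal arrays, and samples 1-2 and 3-4 lay above the normal arrays while 5-6 and 7-8 lay below them.

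The desaturase Scd1 and the elongase Elovl6 were the members that fell in both genotypes. Scd1 (chromosome 19) puts the first double bond into palmitate and stearate. It was at 7.63, 7.05, 7.34 and 6.94 in the heterozygous samples and 6.89 in the homozygous sample, against 8.99 and 8.82 in the normal arrays. The groups lay more than 1 log2 unit apart with no overlap. Scd1 fell by 1.66 in heterozygous tumors (SE 0.20, 3.17-fold lower, adjusted p = 0.00178, limma) and by 2.02 in the homozygous sample (SE 0.28, 4.05-fold lower, adjusted p = 0.02, limma).

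Elovl6 (chromosome 3) lengthens palmitate to stearate. It was at 8.55, 8.28, 8.71 and 8.59 in the heterozygous samples and 8.73 in the homozygous sample, against 9.87 and 9.69 in the normal arrays. No tumor sample reached the normal arrays. Elovl6 fell by 1.25 in heterozygous tumors (SE 0.15, 2.37-fold lower, adjusted p = 0.00158, limma) and by 1.05 in the homozygous sample (SE 0.21, 2.07-fold lower, adjusted p = 0.0469, limma). A second tested Elovl6 probe set fell by 0.73 in heterozygous tumors (adjusted p = 0.0454, limma). In the homozygous sample it differed by -0.47 (adjusted p = 0.457, limma). The homozygous calls rest on both normal arrays, and both were lost without normal array 1 or normal array 2. That of Elovl6 was also lost without heterozygous sample 1-2, 3-4 or 7-8. Over all arrays and samples left out in turn, Scd1 differed by -2.11 to -1.93 and Elovl6 by -1.14 to -0.96 in the homozygous sample.

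**Figure D2:**
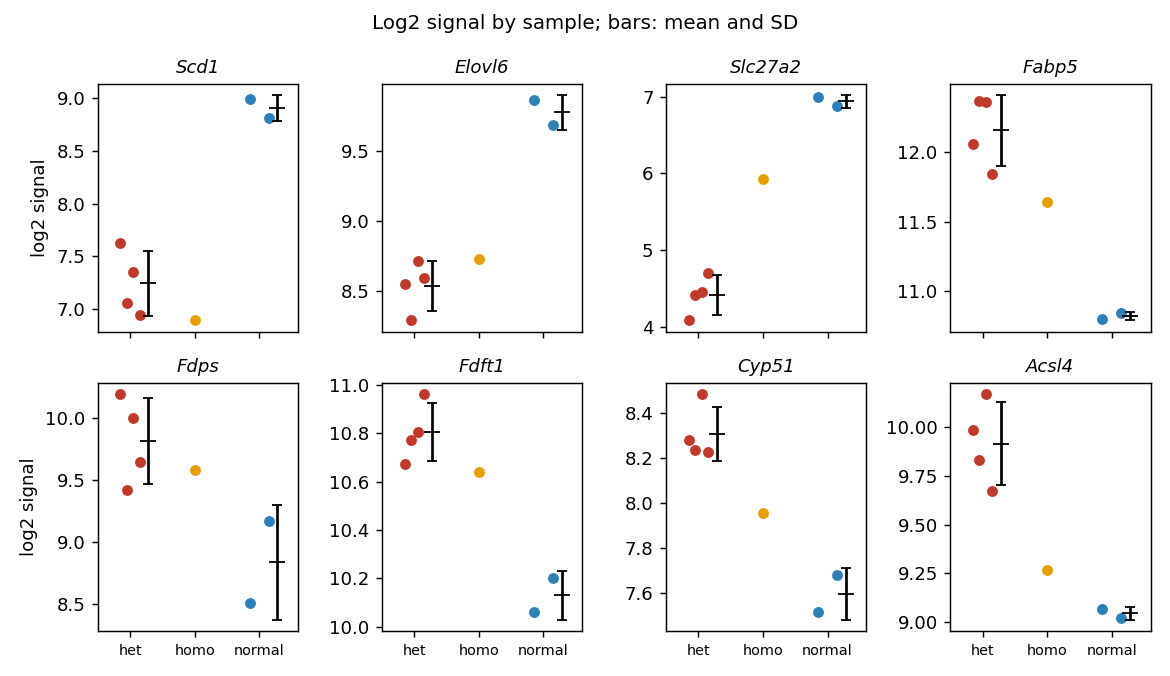
Log2 signal of 8 members in heterozygous (het), homozygous (homo) and normal samples, 1 point per sample, with the mean and SD of groups with more than 1 sample. The vertical axes differ between panels and do not start at 0. Scd1 and Elovl6 are low in both tumor genotypes, and Slc27a2, Fabp5, Cyp51 and Acsl4 have the homozygous sample between the heterozygous and the normal ones.

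Scd2, the main stearoyl-CoA desaturase of mouse brain, was at 12.09, 11.58, 11.81 and 11.50 in the heterozygous samples and 11.68 in the homozygous sample, against 11.99 and 11.82 in the normal arrays, and the groups overlap. Its difference in heterozygous tumors was -0.16 (95% interval -0.58 to 0.26). Its other probe sets gave 0.21 and 0.91, of which the second passed the test (adjusted p = 0.04, limma), so that the direction for Scd2 depends on the probe set. Elovl5, which elongates polyunsaturated fatty acids, fell by 0.67 in heterozygous tumors (adjusted p = 0.0225, limma), and by 0.72 on a second probe set (adjusted p = 0.0153, limma). Elovl1, an elongase of very long saturated chains, differed by 0.25 (adjusted p = 0.145, limma).

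Fads1 and Fads2, desaturases on the way to arachidonic and docosahexaenoic acid, had differences of -0.16 and -0.29 in heterozygous tumors and did not pass the test. Fads1 was at 9.70 in the homozygous sample, below the 10.19 to 10.75 of the heterozygous samples and the 10.59 and 10.50 of the normal arrays (adjusted p against normal pituitary = 0.126, limma). Elovl2, below the filter and not tested, was listed at 5.47 to 5.73 in the heterozygous samples and 4.09 in the homozygous sample, against 4.94 and 5.02 in the normal arrays.

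Of the 3 measured genes of fatty acid activation, Acsl4 was higher in heterozygous tumors and Acsl3 and Slc27a2 were lower. Slc27a2 (chromosome 2), a fatty acid transporter and very long chain acyl-CoA synthetase, was at 4.08, 4.42, 4.45 and 4.71 in the heterozygous samples and 5.93 in the homozygous sample, against 7.00 and 6.88 in the normal arrays. The heterozygous samples lay below 5.74, the median of all values on the arrays, where signal approaches background, so the size of the difference is not exact. The fitted difference in heterozygous tumors was -2.53 (SE 0.17, adjusted p = 0.000313, limma), which is given as a value, since the gene was tested only because of the groups where it is high. The difference was -1.01 in the homozygous sample (adjusted p = 0.0852, limma). The mean log2 signal of 4 gonadotroph markers was 6.54, 7.21, 8.67 and 8.65 in the heterozygous samples and 9.44 in the homozygous sample, against 12.02 and 11.96 in the normal arrays. It too was lowest in heterozygous tumors, intermediate in the homozygous sample and highest in the normal arrays. The thyrotroph marker Tshb had the same order. Tshb was at 6.78, 8.30, 8.91 and 10.57 in the heterozygous samples and 11.10 in the homozygous sample, against 12.61 and 12.47 in the normal arrays. The part of either cell type in the Slc27a2 result was not tested.

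Acsl3 and Acsl4 are long-chain acyl-CoA synthetases, and Acsl4 prefers arachidonate. Acsl3 was at 7.99, 8.14, 7.98 and 8.59 in the heterozygous samples and 8.45 in the homozygous sample, against 9.08 and 9.12 in the normal arrays. It fell by 0.93 in heterozygous tumors (adjusted p = 0.013, limma). Acsl4, on the X chromosome, was at 9.98, 9.83, 10.17 and 9.67 in the heterozygous samples and 9.27 in the homozygous sample, against 9.07 and 9.02 in the normal arrays. It rose by 0.87 in heterozygous tumors (SE 0.15, adjusted p = 0.00778, limma). Its other probe sets gave 0.69 and 1.75, of which the second passed the test (adjusted p = 0.00751, limma).

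Among the 5 regulators, Insig1 rose and Scap fell in heterozygous tumors. Insig1, which holds the SREBP complex in the endoplasmic reticulum and is itself an SREBP target, was at 8.56, 8.55, 8.91 and 8.73 in the heterozygous samples and 8.51 in the homozygous sample, against 8.08 and 8.01 in the normal arrays. The difference was 0.64 ± 0.14 (SE, adjusted p = 0.016, limma) in heterozygous tumors and 0.47 ± 0.19 (adjusted p = 0.263, limma) in the homozygous sample. Scap, the escort that carries SREBPs to the Golgi, was at 9.56, 9.43, 9.48 and 9.22 in the heterozygous samples and 9.48 in the homozygous sample, against 10.04 and 9.84 in the normal arrays. It fell by 0.52 in heterozygous tumors (SE 0.14, adjusted p = 0.0325, limma). With Xist as a covariate the difference was -0.42 and no longer passed the test (adjusted p = 0.0826, limma), and it did not pass without heterozygous sample 3-4 or 5-6 (adjusted p = 0.077 and 0.0524, limma) or without normal array 1 or 2 (adjusted p = 0.201 and 0.0793, limma).

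Srebf1 was at 9.28, 9.03, 9.27 and 9.03 in the heterozygous samples and 9.11 in the homozygous sample, against 9.73 and 9.49 in the normal arrays. The groups did not overlap, but the difference of -0.46 in heterozygous tumors missed the threshold (adjusted p = 0.0506, limma). Srebf2 was at 9.13, 8.57, 8.70 and 8.29 in the heterozygous samples and 8.15 in the homozygous sample, against 8.75 and 8.57 in the normal arrays. The heterozygous samples spread on both sides of the normal arrays, and the difference was 0.01 (95% interval -0.51 to 0.53). Insig2 was at 10.31, 10.37, 10.23 and 10.33 in the heterozygous samples and 10.32 in the homozygous sample, against 10.58 and 10.52 in the normal arrays. Its difference in heterozygous tumors was -0.24 (adjusted p = 0.142, limma), and its other probe sets gave 0.38 and -0.05.

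Fabp5 (chromosome 3), an intracellular carrier of fatty acids, was at 12.06, 12.37, 12.36 and 11.84 in the heterozygous samples and 11.65 in the homozygous sample, against 10.80 and 10.84 in the normal arrays. All tumor samples lay above the normal arrays. It rose by 1.34 in heterozygous tumors (SE 0.17, 2.53-fold higher, adjusted p = 0.00226, limma), and by 1.14 on a second probe set (adjusted p = 0.00665, limma). The difference in the homozygous sample was 0.83 (adjusted p = 0.135, limma). Fabp5 is also expressed by macrophages. Of 12 macrophage markers, all 12 were higher in heterozygous tumors at an adjusted p under 0.05 and 3 in the homozygous sample (limma). Of all genes, 12.7% and 1.59% were higher by this rule. Adgre1, Aif1 and Mrc1 lay below 5.74 in both normal arrays and passed the filter only through tumor arrays. Their tests are therefore not independent of the filter. The mean log2 signal of the 12 markers was 7.98 to 8.63 in the heterozygous samples and 7.72 in the homozygous sample, against 6.49 and 6.72 in the normal arrays. Their part in the Fabp5 result was not tested. Abca1, the exporter of cholesterol to lipoproteins, spread over 10.01 to 11.06 in the heterozygous samples and was at 10.27 in the homozygous sample, against 10.76 and 10.48 in the normal arrays, with a difference of -0.16 in heterozygous tumors (adjusted p = 0.719, limma).

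**Figure D3:**
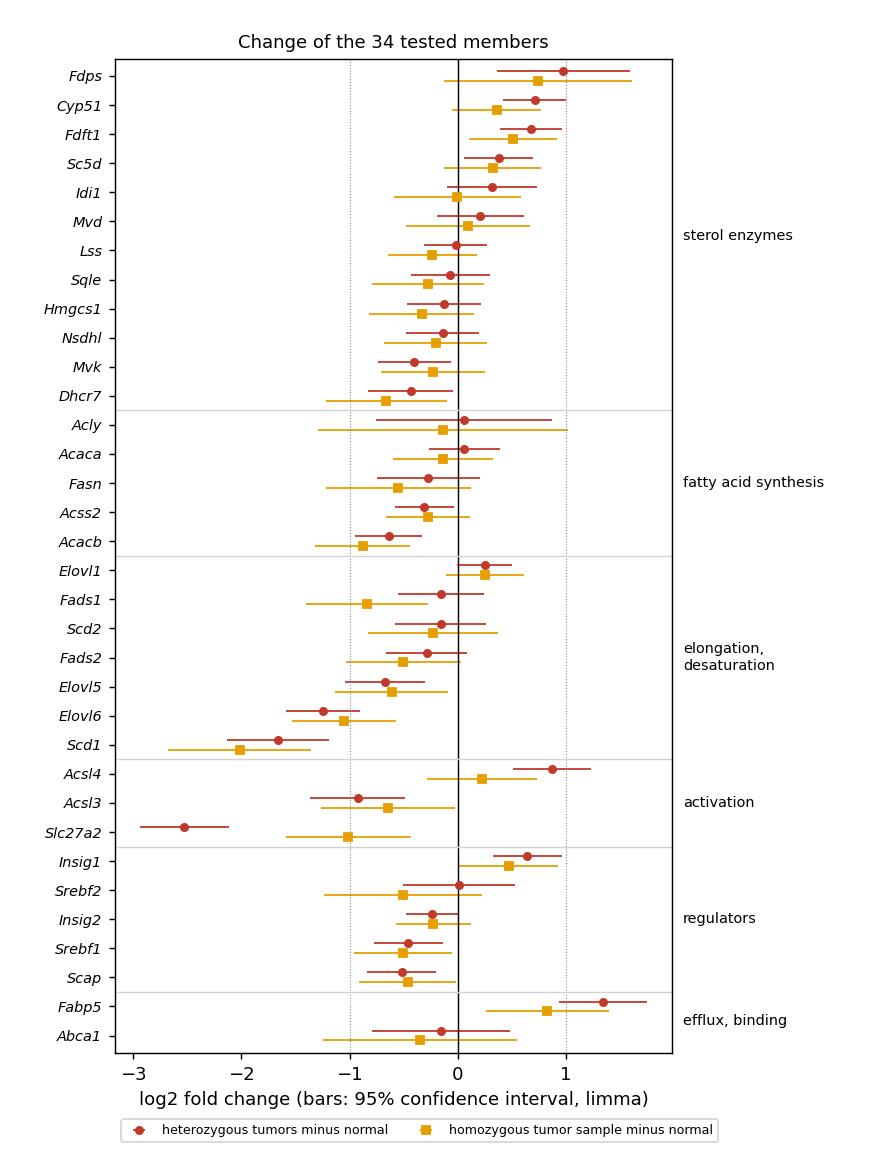
Log2 fold change with its 95% interval (limma) of the 34 tested members in heterozygous tumors (circles) and the homozygous tumor sample (squares), each against normal pituitary, by role. Dotted lines mark a 2-fold change, and the widest intervals are those of Acly. In heterozygous tumors Scd1, Elovl6 and Slc27a2 lie beyond the lower line and Fabp5 beyond the upper one.

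Markers of other cell types and of RNA quality differed between the tumors and normal pituitary as well. All 5 proliferation markers measured were higher in heterozygous tumors at an adjusted p under 0.05, against 12.7% of all genes (limma). Bub1 and Birc5 lay below 5.74 in both normal arrays and passed the filter only through tumor arrays, so their tests are not independent of it. The mean log2 signal of the 5 was 8.03 to 8.92 in the heterozygous samples and 8.08 in the homozygous sample, against 5.94 and 6.23 in the normal arrays. Of 6 tested glial markers, 3 fell in heterozygous tumors and 2 fell in the homozygous sample at an adjusted p under 0.05 (limma). Of all genes, 11.5% and 1.58% fell by this rule. Slc1a3 and Aldh1l1, the 2 that fell in both, lay below 5.74 in every heterozygous sample. They passed the filter on low values only through other groups, so their tests are not independent of it. Among markers of endocrine cells, the thyrotroph hormone subunit Tshb fell by 3.90 in heterozygous tumors and the somatotroph receptor Ghrhr fell by 3.13, while the melanotroph factor Pax7 rose by 1.48 (adjusted p = 0.0191, 0.00805 and 0.00262, limma). In the homozygous sample these differed by -1.44, -3.22 and 0.66, with none past the test (adjusted p = 0.598, 0.0857 and 0.273, limma). Other markers of the endocrine lists did not pass in heterozygous tumors. Gh differed by -0.70, Prl by -0.25, and Tbx19 and Pomc, listed with Pax7, by 0.33 and 0.16 (adjusted p = 0.196, 0.566, 0.374 and 0.33, limma). Tbx19 differed by -0.10 in the homozygous sample. Of 5 endothelial markers tested, none passed in either tumor genotype. The adipocyte genes Adipoq, Cidec and Lep lay between 2.73 and 3.87 in every sample, below the filter, and the lipase Pnpla2, also used by other cells, was at 8.19 to 8.59 in the tumor samples, against 8.02 and 8.44 in the normal arrays. The difference between 3′ and 5′ control probes of Actb was 0.57 to 0.77 in the tumor samples, against 0.93 and 0.72 in the normal arrays, and that of Gapdh was -0.25 to -0.08 in the tumor samples, against 0.23 and 0.08 in the normal arrays. The part of any of these in the members' results was not tested.

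The sterol and fatty acid branches were set side by side by the medians of their members. The median log2 fold change in heterozygous tumors was 0.09 over 12 sterol enzymes and -0.29 over 15 fatty acid genes, beside 0.00 over all tested genes. In the homozygous sample it was -0.10 over the sterol enzymes and -0.55 over the fatty acid genes, beside -0.03 over all tested genes. The sterol median was thus 0.38 above the fatty acid median in heterozygous tumors and 0.44 above it in the homozygous sample. The fatty acid median was below that of all genes in both tumor genotypes, and the sterol median was nearer to it. With Xist as a covariate, heterozygous tumors had a sterol median of 0.26 and a fatty acid median of -0.22. The homozygous sample then had 0.23 and -0.42, so that the sign of its sterol median turned. The sterol median in the homozygous sample was also above 0 with the mean of all tested probe sets (0.13) and without normal array 2 (0.01). Of the fatty acid genes, 6 of 15 were lower at an adjusted p under 0.05 in heterozygous tumors, Slc27a2 among them, and 1 was higher. Of the 12 sterol enzymes, 0 were lower and 3 higher, and of all genes, 11.5% were lower and 12.7% higher. Without heterozygous sample 1-2, the sterol enzyme Dhcr7 was lower by this rule. With 12 arrays as separate samples, Mvk and Dhcr7 were. Both tumor comparisons share the normal arrays. Without normal array 1, none of the sterol enzymes was higher at this threshold, and with normal array 1 or normal array 2 left out, 3 fatty acid genes were lower.

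Sample by sample, the sterol median minus the fatty acid median, each relative to the normal mean, was 0.25, 0.33, 0.74 and 0.35 in the heterozygous samples and 0.44 in the homozygous sample, against -0.10 and 0.10 in the normal arrays. It was positive in all 5 tumor samples. The parts of it differed between samples. The sterol median was 0.28 and 0.27 in heterozygous samples 1-2 and 5-6, against -0.04 and -0.06 in 3-4 and 7-8 and -0.10 in the homozygous sample. The fatty acid median was 0.03 in heterozygous sample 1-2, against -0.37, -0.47 and -0.41 in the other heterozygous samples and -0.55 in the homozygous sample.

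The heterozygous samples with a higher sterol median were those with low Xist. For 11 of 12 sterol enzymes, Fdft1 excepted, both low-Xist heterozygous samples lay above both high-Xist ones, an arrangement found for 19.9% of all genes tested. The reverse arrangement was found for 22.2% of all genes and for no sterol enzyme. Among the fatty acid genes 5 of 15 had the low-Xist samples above, Scd1, Scd2, Fasn, Acacb and Acsl4, and among the regulators 3 of 5 did, Srebf1, Srebf2 and Scap. Of 7 other sterol genes tested, 3 did. This is a description of 4 samples that were split by a measured gene, with no test, and genes of 1 pathway in the same samples are not independent. The normal arrays were low in Xist and the homozygous sample was high, so that comparison has no Xist-matched samples. A fit with Xist as a covariate takes the size of the Xist term from the heterozygous samples and assumes that it holds in the others. In that fit Scd1 differed by -1.52 in the homozygous sample and Elovl6 by -0.88, of which only Scd1 passed the test (adjusted p = 0.0379 and 0.155, limma). Between low-Xist heterozygous samples and normal arrays, a comparison added after the data were seen, Fdps differed by 1.26, Acsl4 by 1.03 and Acsl3 by -1.12, and these joined the 4 members called (adjusted p = 0.0111, 0.00371 and 0.00621, limma).

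**Figure D4:**
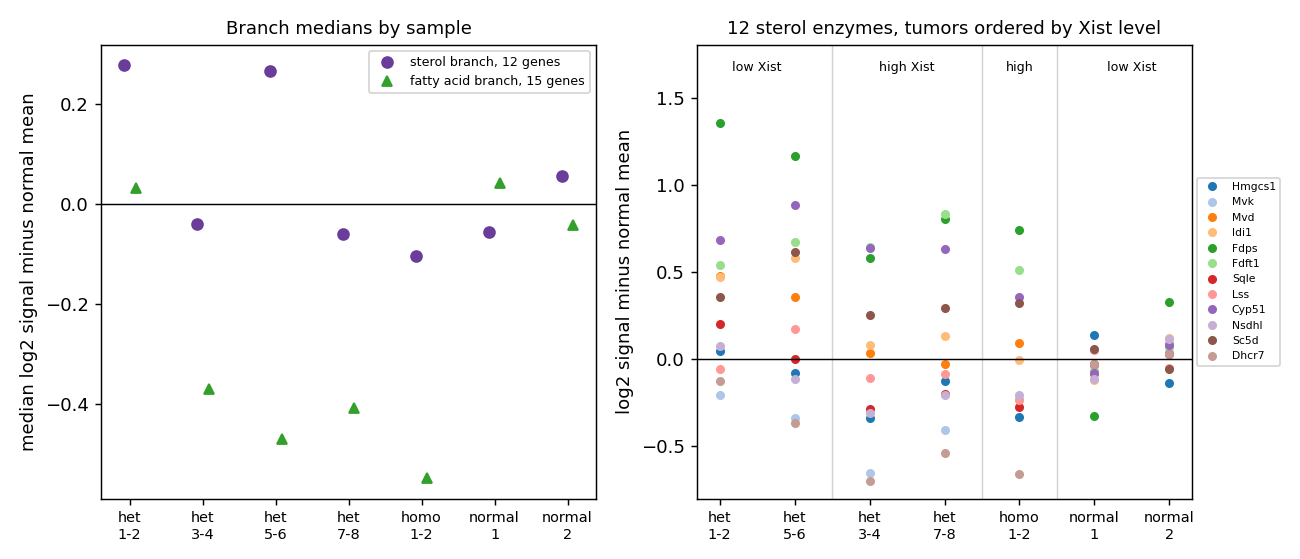
Left, median log2 signal minus the normal mean of 12 sterol enzymes (circles) and 15 fatty acid genes (triangles) in each sample; the circle lies above the triangle in all 5 tumor samples. Right, the same quantity for each sterol enzyme, with the low-Xist heterozygous samples 1-2 and 5-6 placed before the high-Xist samples 3-4 and 7-8; most enzymes are higher in the low-Xist pair.

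The homozygous sample was also compared with the heterozygous tumors, which tests whether the genotypes differ in their distance from normal pituitary. No member was called (limma), against 0.276% of all genes, and at an unadjusted p under 0.05 there were 1 higher member, Slc27a2, and 2 lower ones, Fads1 and Acsl4, against 4.58% and 5.98% of all genes. A one-way test over the 12 arrays called Slc27a2, but it counts both arrays of a pair as separate samples. In the heterozygous samples Slc27a2 was at 4.08, 4.42, 4.45 and 4.71, where signal approaches background. It was tested only because of the groups where it is high, so neither result for Slc27a2 is independent of the filter. The fitted difference of 1.51 ± 0.23 (SE) in Slc27a2 is therefore given as a value, and its size is not exact. Acsl4 differed by -0.64 (adjusted p = 0.36, limma) and Fads1 by -0.68 (adjusted p = 0.379, limma). For Scd1 the difference was -0.35 with a 95% interval of -0.96 to 0.25, and for Elovl6 it was 0.19 with an interval of -0.25 to 0.63. Of the sterol enzymes, 11 of 12 had a negative difference, with a median of -0.21, beside -0.03 over all genes. A negative difference was also found for 9 of 15 fatty acid genes, with a median of -0.20, and for 6856 of all 12305 genes. The homozygous sample was high in Xist. Against the high-Xist heterozygous samples alone, the sterol enzymes differed by -0.28 (Cyp51) to 0.30 (Mvk). Mvk, Mvd, Fdps, Nsdhl and Sc5d were then above 0 and the other sterol enzymes below it. The part of Xist in this was not tested.

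Other genes of the same pathways were listed by role, and 36 of 46 were tested. In heterozygous tumors 4 were higher at an adjusted p under 0.05, Lbr, Ebp, Elovl4 and Thrsp, and 5 were lower, Elovl7, Mlxip, Dgat2, Gpam and Lpin1. These counts are near the shares of all genes tested, of which 12.7% were higher and 11.5% lower by this rule. By role, 2 of 7 sterol genes were higher, Lbr and Ebp, which act after lanosterol, none of 7 genes of sterol uptake and handling passed the test in either direction, and 17 fatty acid genes had 2 in each direction, with a median of 0.11, on the other side of 0 from the -0.29 of the 15 members. Of 5 glycerolipid genes, 3 were lower. Lpin1, the phosphatidate phosphatase, passed the fold threshold as well. It was at 8.08, 8.35, 7.79 and 8.26 in the heterozygous samples and 8.34 in the homozygous sample, against 9.37 and 9.23 in the normal arrays, and fell by 1.18 in heterozygous tumors (adjusted p = 0.00362, limma). Dgat2, which completes triglycerides, fell by 0.99 (adjusted p = 0.0028, limma), and Gpam, which starts glycerolipid synthesis, by 0.85 (adjusted p = 0.0045, limma). None passed the test in the homozygous sample, where Lpin1 differed by -0.97, Dgat2 by -0.74 and Gpam by -0.70 (adjusted p = 0.0926, 0.0973 and 0.102, limma).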

How the data were processed

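The authors deposited log2 expression values, made with the Robust Multichip Average algorithm. Affymetrix Expression Console is named for it in the labels, and GeneSpring GX in the methods. Robust Multichip Average subtracts background, equalizes the distribution of signal across arrays and so removes any global change. The methods' filter on absent calls was not applied.

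A probe set was kept if 2 or more arrays reached the overall median signal (5.74), and 24486 passed. Tumor array pairs were averaged (the pairing is inferred from their likeness, while the design text lists a mouse per array), and limma 3.58.1 in R 4.3.3 fitted 7 samples with 4 residual degrees of freedom. The scripts were checked on simulated data. Calls needed a Benjamini-Hochberg p below 0.05 together with a change of more than 2-fold, with no depth to give for arrays, whose number limits the precision. A gene's probe set was the one with the highest mean. Full values are given for members called in any comparison, for the regulators and for Hmgcs1, Sqle, Fasn, Scd1 and Scd2. Others given in full (Fdps, Fdft1, Cyp51, Acacb, Acly, Acsl3, Acsl4) were picked after their values were seen. The members and all lists were chosen with earlier results of these data known. Alternatives covered normalization, filter, pairing, Xist, probe choice and each sample left out. Promoters are from RefSeq.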

Additional observations from a re-analysis of the deposited data

How the results depend on the processing

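The members that passed the test and the sterol minus fatty acid difference kept their direction under the alternatives run. Over all alternatives, the sterol median stayed positive in heterozygous tumors (0.04 to 0.28), and the fatty acid median stayed negative in the homozygous sample (-0.58 to -0.42). The other branch medians changed sign. The sterol median was -0.16 to 0.23 in the homozygous sample. The fatty acid median was -0.39 to 0.03 in heterozygous tumors, with 0.03 from arrays 1 and 2 alone. The count of members called in heterozygous tumors was 4, and it was 7 with Xist as a covariate and 7 within low-Xist or high-Xist samples. The count in the homozygous sample was 2, and it was 1 with Xist as a covariate, with housekeeping centring, with quantile normalization repeated and with the mean of all tested probe sets, each time because Elovl6 was lost. The count between homozygous and heterozygous tumors was 0. It was 1 with 12 arrays as separate samples, with the mean of all tested probe sets, with no filter on low values, in a one-way test over the 3 genotypes and with the pair as a random block, the member being Elovl2 with no filter and Slc27a2 in the others. The one-way test asks whether any of the 3 genotypes differ, and not these 2 alone. Slc27a2 lay near background in the heterozygous samples and passed the filter only through the homozygous and normal arrays. Its calls between the genotypes are therefore not independent of the filter. The count in heterozygous tumors was 3 with the filter in at least 7 arrays, which removes Slc27a2. With the mean of all tested probe sets, the sterol minus fatty acid difference in the homozygous sample was 0.667, against 0.444, and Elovl6 in heterozygous tumors was at -0.99, just inside the 2-fold threshold. Replicate numbers tie no mouse to another. In a fit of arrays 1 and 2 of each genotype with the replicate number as a replicate block, 2 members were called between homozygous and heterozygous tumors and 6 sterol enzymes were higher in heterozygous tumors, against 3. The same arrays with no block, added after the data were seen, gave the same counts of 2 and 6. These fits hold 1 pair of arrays of each tumor genotype, which is counted as 1 sample elsewhere, so their p-values are too small. The members called between genotypes were Fads1 and Slc27a2. Leaving out 1 array or sample in turn gave 4 to 6 members called in heterozygous tumors, 0 to 2 in the homozygous sample, 0 to 1 between the genotypes, 0 to 3 sterol enzymes higher and 3 to 6 fatty acid genes lower. The sterol minus fatty acid difference was then 0.319 to 0.449 in heterozygous tumors and 0.345 to 0.597 in the homozygous sample. Both homozygous calls were lost with normal array 1 or normal array 2 left out. Elovl6 alone was lost without heterozygous sample 1-2, 3-4 or 7-8, and without heterozygous array 2, 5 or 8. The cause of these changes was not tested.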
